A study of Rattus norvegicus and synthetic construct with 4 samples.

Results

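A set of 18 human islet elements gave little reporter RNA in each of 3 separate transfections of a beta cell line. They were chosen by their measured output. For every element, RNA and plasmid DNA counts were summed over its barcodes, and each RNA/DNA ratio was divided by the median ratio of all 3378 elements in that RNA library. This quotient is called the scaled ratio here, and 1 is the median element. An element was kept if it had at least 10 counted barcodes and a scaled ratio under 0.5 in RNA replicates 1, 2 and 3. Of the 7188 elements designed, 3378 had counts, and of the 1143 with at least 10 counted barcodes 18 (1.57%) met this rule. The low ratios themselves are therefore not a finding, and no test of them is offered as support.

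The elements are stretches of 198 bp of human DNA that CAGE, which maps where transcripts begin, marked in pancreatic islets. They were synthesized as oligonucleotides of 230 bp and placed in a STARR-seq plasmid with random barcodes of 16 bases. The plasmid library (10 ug per replicate) was electroporated into INS1 832/13, a clonal rat insulinoma line that secretes insulin and stands in for beta cells, and polyadenylated RNA was taken at 24 h. One group held the 3 RNA libraries, with 197554 to 218571 counts each, and the other held a single library of the input plasmid, with 1079728 counts. Both rest on the same plasmid pool, all cells received the same treatment, and no inactive reference sequence is identified among the elements in the sources used here.

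In STARR-seq the candidate sequence sits inside the transcribed part of the reporter, so an active sequence raises the amount of RNA that carries it. Elements found by CAGE include promoters, which start stable transcripts of genes, and enhancers, which act on promoters from elsewhere and make short unstable transcripts. A piece taken out of its chromosome loses its neighbouring sequence and chromatin, and these human pieces were read by rat transcription factors. A ratio under 1 says that the element gave less RNA than the median element of the library. It does not show repression, because the level of a plasmid without any active insert was not measured in these counts.

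Each barcode marks a plasmid of its own, so the barcodes show how the output of 1 element was made up. The element at chr6:25652491-25652688 (hg19, as are all coordinates) had 10 barcodes, the fewest the rule allows. They are printed in full, in capitals as deposited, because 8 of the 10 were read a single time in RNA.
Plasmid A: TCTATGCCGTAGACGG
Plasmid B: TATTAGCTTTTCTTGC
Plasmid C: CAACCGCACGAGGGTT
Plasmid D: ATTTACTCGAATGGTC
Plasmid E: TAGTTGAGGTCTAGGG
Plasmid F: ACAAACACGGGTTGAC
Plasmid G: AACATCTATATTAAAT
Plasmid H: CAGCCACTAGCTCATT
Plasmid I: TTAAATCTCTTGGCTA
Plasmid J: ACACGTATTGGGGTTC

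Plasmid A was the most abundant of these in the input, with 53 DNA counts, and gave 0, 1 and 0 RNA counts in replicates 1, 2 and 3. Plasmid B, with 42 DNA counts, gave 1, 3 and 1 RNA counts. It was the only plasmid of this element found in more than 1 RNA library. Plasmid I, with 15 DNA counts, gave 0, 0 and 3. For the remaining 7, with 10 to 36 DNA counts, 1 RNA count was found in 1 library and 0 in the other two. The element as a whole had 274 DNA counts and 2, 7 and 7 RNA counts.

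In other elements of the set the few higher RNA counts sat on single barcodes in single libraries. The barcodes printed next are those with the most RNA counts in 3 elements, at chr5:140027104-140027301, chr14:50053454-50053651 and chr6:126240313-126240510. On chromosome 14 the plasmids that were high differed from one transfection to the next. The elements on chromosomes 5 and 6 had 1 such barcode each, so they cannot show a change of plasmid.
Plasmid K (chromosome 5): GGTTATCGTAGGTTTT
Plasmid L (chromosome 14): GCGGCTAGACTGGTGT
Plasmid M (chromosome 14): TCAGTAATGTTGGCAG
Plasmid N (chromosome 14): GATGTTAGAGAAATTC
Plasmid O (chromosome 14): GTAATATGAATGCGCT
Plasmid P (chromosome 14): AGCTACCATATGGGTA
Plasmid Q (chromosome 6): GCTGATTGCTAACAAG

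Plasmid K had 11 DNA counts and 23, 1 and 0 RNA counts, and held 54.8% of its element's RNA in replicate 1. Plasmid L had 139 DNA counts and 18, 0 and 1 RNA counts. Plasmid M, with 33 DNA counts, gave 14, 3 and 1, so both were high in replicate 1 only. Plasmid N had 16 DNA counts and 1, 13 and 0 RNA counts, and it was high in replicate 2 only. Plasmids O and P, with 36 and 12 DNA counts, were high in replicate 3 alone, where they gave 18 and 16 RNA counts. Plasmid Q had 36 DNA counts and 0, 0 and 11 RNA counts. No plasmid in this list was high in a pair of libraries.

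Over the whole set, 7 elements had no barcode with 5 or more RNA counts in any library. A count of 5 was taken as the border because few barcodes had 5 to 9 counts. On the other elements with at least 10 barcodes, 23.6% of barcodes reached 5 counts and 22.2% reached 10, as means of the 3 libraries. The 7 are the element above at chr6:25652491-25652688 and the elements at chr6:30181069-30181266, chr15:40857112-40857309, chr4:39459949-39460146, chr7:139044732-139044929, chr15:66797068-66797265 and chr4:74606229-74606426. They had 10 to 13 barcodes each.

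The element at chr6:30181069-30181266 was the most even of the set. Its 12 barcodes held 348 DNA counts and gave 7 RNA counts in each of the 3 libraries. The scaled ratios were 0.190, 0.195 and 0.186, with a mean of 0.190 ± 0.00422 (SD, n = 3). This spread was much smaller than the counting error of a single value, as the exact 95% Poisson interval of the first ran from 0.0763 to 0.391. Poisson intervals given here cover the counting error of the RNA only, not that of the DNA or the differences between plasmids. Molecular identifiers are not mentioned, so reads made by PCR may not be separate molecules.

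The element at chr4:39459949-39460146 was nearly as even, with 346 DNA counts on 10 barcodes and 8, 7 and 8 RNA counts. Its scaled ratios were 0.218, 0.196 and 0.214 (mean 0.209 ± 0.0120, SD, n = 3). At chr7:139044732-139044929, 13 barcodes with 420 DNA counts gave 5, 12 and 12 RNA counts, and the scaled ratios were 0.112, 0.276 and 0.264. Replicate 1 was the low one there. These 3 elements are the ones whose upper Poisson bound stayed under 0.5 in all 3 libraries.

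On chromosome 15 the element from 40857112 to 40857309 had 333 DNA counts on 11 barcodes and 7, 5 and 10 RNA counts. Its scaled ratios were 0.198, 0.145 and 0.278. The element from 66797068 to 66797265 had 277 DNA counts on 11 barcodes. Its RNA counts were 4, 13 and 4, with scaled ratios of 0.136, 0.454 and 0.134. Replicate 2 stood above the other two in this element, and its SD of 0.184 was close to its mean of 0.241.

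The scaled ratios at chr6:25652491-25652688 were 0.0689, 0.247 and 0.236 (mean 0.184 ± 0.0999, SD, n = 3). At chr4:74606229-74606426, 320 DNA counts on 12 barcodes stood against 9, 9 and 14 RNA counts. That gave scaled ratios of 0.265, 0.272 and 0.405, the highest mean (0.314) of the 7 elements without a high barcode. Its upper Poisson bound was over 0.5 in every library.

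Another 6 elements with 10 to 15 barcodes had at least 1 barcode with 5 or more RNA counts. The lowest mean of the whole set, 0.175 ± 0.200 (SD, n = 3), belonged to chr6:126240313-126240510. This element had 391 DNA counts on 11 barcodes and 4, 1 and 17 RNA counts, for scaled ratios of 0.0965, 0.0247 and 0.402. Plasmid Q alone supplied 64.7% of the RNA in replicate 3. The SD exceeded the mean, so its place at the bottom of the set rests on replicates 1 and 2.

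At chr6:47277527-47277724 replicate 1 also stood apart, with 4 RNA counts against 19 and 20, on 11 barcodes with 394 DNA counts. The scaled ratios were 0.0958, 0.466 and 0.470. At chr17:3571790-3571987 it was replicate 2 that was low, with 3 RNA counts against 12 and 17 on 10 barcodes with 324 DNA counts (scaled ratios 0.349, 0.0895 and 0.485). In both elements the mean was drawn down by a single library.

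The element at chr3:62860940-62861137, with 13 barcodes and 450 DNA counts, had 11, 23 and 9 RNA counts and scaled ratios of 0.231, 0.494 and 0.185. One barcode held 60.9% of the RNA in replicate 2. At chr6:26158344-26158541, 15 barcodes with 407 DNA counts gave 16, 21 and 15 RNA counts, and the scaled ratios were 0.371, 0.499 and 0.341. On chromosome 8 the element from 118147192 to 118147389 had 513 DNA counts on 12 barcodes against 21, 25 and 19 RNA counts (scaled ratios 0.386, 0.471 and 0.343). A single barcode made up 57.1%, 80.0% and 63.2% of that RNA in the 3 libraries, and it was a different barcode each time. The elements at chr6:26158344-26158541 and on chromosome 8 had the highest means of the set, up to 0.404, and upper Poisson bounds over 0.5 in every library.

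The remaining 5 elements had 19 to 39 barcodes, and their ratios were measured with the most counts. The element at chr14:50053454-50053651 was the best covered, with 39 barcodes, 1277 DNA counts and 54, 43 and 61 RNA counts. Its scaled ratios were 0.399, 0.326 and 0.442 (mean 0.389 ± 0.0588, SD, n = 3). Of its 39 barcodes, 21 had a single RNA count over the 3 libraries together, and 6 had 5 or more counts in 1 library.

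At chr5:140027104-140027301, 32 barcodes held 899 DNA counts and gave 42, 18 and 23 RNA counts. The scaled ratios were 0.441, 0.194 and 0.237 (mean 0.290 ± 0.132, SD, n = 3). Replicate 1 was the high one, and Plasmid K supplied more of its RNA than the other 31 barcodes together. This was the lowest mean among these 5 elements.

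The element at chr3:113253008-113253205 had 22 barcodes with 758 DNA counts, 26, 16 and 39 RNA counts, and scaled ratios of 0.324, 0.204 and 0.476. At chr6:26056688-26056885, 20 barcodes with 600 DNA counts gave 28, 15 and 24 RNA counts (scaled ratios 0.440, 0.242 and 0.370). At chr13:56756456-56756653, 19 barcodes with 809 DNA counts gave 31, 40 and 31 (scaled ratios 0.362, 0.478 and 0.355), and the upper Poisson bound was again over 0.5 in every library. The libraries did not rank the same way in these elements. Over all 18, the lowest ratio came from replicate 1 in 4 elements, from replicate 2 in 8 and from replicate 3 in 6.

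Pooled over the set, the 283 barcodes lacked the high class of RNA counts far more than barcodes of other elements. Barcodes with 5 or more RNA counts made up 2.47%, 2.47% and 3.18% of them in replicates 1, 2 and 3, against 23.8%, 22.8% and 24.2% of the 24315 barcodes on the other 1125 elements with at least 10 barcodes. In any library, 23 of the 283 (8.13%) were high, against 46.6%. All 23 were high in exactly 1 library. Of the 11322 high barcodes on the other elements, 4268 were high in at least 2. A barcode high in at least 2 libraries was found 0 times in 283, where the share on the other elements was 17.6%. No upper limit is drawn from the 0, because the rule chose elements with little RNA and barcodes of 1 element are not independent. These shares come from the same RNA and DNA counts as the rule, so they describe how low output was made up and are not a separate line of evidence.

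Where a barcode did reach the high class, its counts were lower than those of other high barcodes. Their median was 14, 13 and 12 RNA counts in the 3 libraries, against 18, 17 and 17 on the other elements. The largest count was 23 in the set and 321 on the other elements. The first is the maximum of 23 high values and the second of 17218, and more values alone raise a maximum. Barcodes outside the high class also gave less RNA for their DNA in the set. With the high barcodes left out, the pooled scaled ratio was 0.194, 0.207 and 0.231, against 0.305, 0.348 and 0.355 for the other elements. This ratio includes barcodes with no RNA count in that library. They made up 54.1%, 53.0% and 48.8% of all barcodes in the set, against 37.2%, 34.7% and 31.5% on the other elements. Where counts were present but below the high class, their median was 1 in each library in the set, against 1, 2 and 2. The rule limits the summed RNA of each member. Lower counts in the high class and less RNA outside it thus follow at least in part from the choice.

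The lack of high barcodes was present at every depth of plasmid input. Among barcodes with 10 to 19 DNA counts, 6.25% of 80 were high in at least 1 library (exact Clopper-Pearson 95% interval 2.06 to 14.0%), against 43.3% of 7946. With 20 to 39 DNA counts it was 8.59% of 128 (4.37 to 14.9%) against 45.7% of 10706, and with 40 or more 9.33% of 75 (3.84 to 18.3%) against 52.8% of 5663. The intervals take barcodes as independent draws, which barcodes of 1 element are not. The rule used the same counts, so these shares describe the set and are no test of the role of input. The set had fewer barcodes (median 12 against 16) and less input per element (median 400.5 against 509 DNA counts) than the other elements. Input per plasmid was similar. The median DNA count of a barcode was 28 in the set and 26 on the other elements, and DNA per barcode ranged from 25.2 to 42.8 between the 18 elements, within the 18.7 to 51.4 of the others.

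How low a ratio could go was limited by the table. Every deposited barcode had at least 1 RNA count over the 3 libraries, so an element cannot have fewer RNA counts in total than it has barcodes. In the set, 144 of 283 barcodes (50.9%) were at that minimum, against 4875 of 24315 on the other elements, and 65.0% were found in 1 RNA library only, against 36.5%. The elements had 1.60 to 5.42 RNA counts per barcode over the 3 libraries together (median 2.93), against a median of 10.8. At chr6:25652491-25652688, 1 count per barcode would have given a pooled scaled ratio of 0.115, and the measured one was 0.184. Plasmids with no RNA count could not enter the ratios, and leaving them out can only raise an element's ratio before scaling.

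The number of barcodes lost on the way to the count table was somewhat larger in the set. The pairing table listed 765 barcodes for these elements, a median of 36 and a range of 18 to 102, of which 37.0% were counted. For the other elements with at least 10 counted barcodes it was 43.5%, with a median of 39 paired barcodes. A barcode without RNA drops out, so this share also depends on output. The GC content of the counted barcodes, which the rule did not use, was 41.9% in the set and 42.0% on the other elements.

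A low ratio in a pair of libraries was followed by a low ratio in the third in 54 of 159 cases (34.0%), counting each of the 3 pairs of libraries in turn. The 54 are the 18 members, each counted once per pair, so the cases are not separate elements. Elements with at least 10 barcodes that were under 0.5 in replicates 2 and 3 numbered 63, and 18 of them (28.6%) were under 0.5 in replicate 1, where 154 of all 1143 (13.5%) were. Choosing on replicates 1 and 3 gave 47 elements, of which 18 (38.3%) were low in replicate 2, against 16.0% of all. Choosing on replicates 1 and 2 gave 49, of which 18 (36.7%) were low in replicate 3, against 14.6% of all. In the library not used for the choice, the median scaled ratio of these elements was 0.642, 0.591 and 0.645, against 1.15, 1.11 and 1.11 for all 1143. The remaining library was under 1 for 79.4%, 80.9% and 81.6% of them, against 44.4%, 45.6% and 45.6% of all. These shares are a description, because the 3 ratios divide by the same DNA counts and an overcounted plasmid would lower all of them.

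The rule drew its line through a continuous range. Of the 1143 elements, 240 were under 0.5 in 1 library, 105 in 2 and 18 in 3. The members nearest to the threshold were those at chr6:26158344-26158541, chr3:62860940-62861137 and chr17:3571790-3571987, whose highest scaled ratios were 0.499, 0.494 and 0.485. Just outside lay chr12:21654437-21654634, at 0.508, 0.126 and 0.332 (22 barcodes), chr2:102721004-102721201, with 0.513, 0.153 and 0.422 on 14, and chr16:30662262-30662459, with 0.495, 0.380 and 0.516 on 10. Each of these last 3 was under 0.5 in 2 of the 3 libraries. When each element was stripped of the barcode with the most RNA counts, 19 elements met the rule and 9 of the 18 were among them. The median ratio was taken anew from the stripped counts, so these scaled ratios have a different centre.

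RNA was also compared with plasmid DNA in one model over all 3378 elements, edgeR's quasi-likelihood test with Benjamini-Hochberg adjustment. All 18 elements had a fitted log2 ratio below the centre of the library, from -2.65 to -1.44 with a median of -1.84, where the median of all elements was -0.03. None of the 18 had an adjusted p under 0.05, and none of the 3378 elements (0%) did below the centre. At an unadjusted p under 0.05 the test placed 26 of all elements (0.770%) below the centre, 3 of them members. The rule used the same contrast, so nothing is read from these shares.

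These 3 had the most barcodes of the set. The element at chr14:50053454-50053651 had a log2 ratio of -1.50 ± 0.56 (SE) and the smallest adjusted p of the set in edgeR's test, 0.0899. At chr5:140027104-140027301 it was -1.92 ± 0.76 (SE, edgeR adjusted p = 0.133), and at chr3:113253008-113253205 it was -1.72 ± 0.82 (SE, edgeR adjusted p = 0.297). The lowest fitted value, -2.65 at chr6:126240313-126240510, had an SE of 1.44. The 7 lowest fitted ratios all came from elements with 10 to 13 barcodes, with SEs of 1.31 to 1.60.

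With limma-voom, which models the same counts on a log scale, 9 of the 18 fell below the centre once p was adjusted (under 0.05), as did 136 of 3378 elements (4.03%). The smallest adjusted p in limma-voom was 0.00305 at chr6:126240313-126240510, where the log2 ratio was -3.21 ± 0.89 (SE), followed by 0.00475 at chr14:50053454-50053651, with -1.49 ± 0.43 (SE). The tests thus differed on how many of the set were called and on which element came first. In both, the spread is estimated between the RNA libraries, since the input was sequenced once, and it is partly pooled over all elements. An SE is thus not the spread of that element alone. The edgeR SE was 1.47 at chr6:30181069-30181266, with 7 RNA counts in each library. At chr6:126240313-126240510, with 4, 1 and 17, it was 1.44.

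The set was spread over 10 chromosomes, with more members on chromosome 6 than on any other. Chromosome 6 held 6 of the 18 elements (33.3%) and 93 of the 1143 with at least 10 barcodes (8.14%). Chromosomes 3, 4 and 15 held 2 each. No member came from chromosome 1, which had 127 elements with at least 10 barcodes, or from chromosomes 2, 11, 12 and 19, with 70 to 76. Over all 1143 such elements 1.57% were members, so a 0 on 1 chromosome carries little. The chromosome was not tested against the set.

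On the short arm of chromosome 6, 4 members lay between 25652491 and 30181266, a stretch singled out after their values were seen. The stretch held 22 elements with at least 10 barcodes. The members lower any median they enter, so they were left out: the other 18 elements had a median scaled ratio (mean of 3 libraries) of 0.711, against 0.853 for the 87 non-members on all of chromosome 6 and 1.09 for all 1125. This was not tested. As background, this arm carries the largest cluster of replication-dependent histone genes and the major histocompatibility complex. A human annotation was not used here, so elements were not assigned to genes, exons or introns. The 4 members started at 25652491, 26056688, 26158344 and 30181069, and no pair of members lay within 1000 bp of each other.

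Position relative to other library elements was not used by the rule. In the pairing table, 8 of the 18 elements (44.4%) had another element that started within 1000 bp, and 6 (33.3%) had one that shared 98 bp with them. Among the other elements with at least 10 barcodes, 27.7% had such a neighbour and 15.8% had one that shared at least 50 bp. This difference was not tested.

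An overlapping neighbour carries part of the same sequence on different plasmids, so its output is measured apart from that of the member. Counts were available for 4 overlapping neighbours, none of them a member. The neighbour of chr6:25652491-25652688, shifted by 100 bp to start at 25652591, had 137 DNA counts on 5 barcodes and 4, 4 and 15 RNA counts (scaled ratios 0.275, 0.282 and 1.01). The neighbour of chr14:50053454-50053651, starting at 50053554, had 250 DNA counts on 9 barcodes against 3, 9 and 18 RNA counts (scaled ratios 0.113, 0.348 and 0.666). The neighbour of chr6:26056688-26056885, starting at 26056588, had only 2 barcodes and 36 DNA counts, with 0, 3 and 2 RNA counts. These 3 had mean scaled ratios of 0.524, 0.376 and 0.440.

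The fourth differed. The neighbour of the chromosome 8 element, starting at 118147292, had 208 DNA counts on 4 barcodes and 36, 22 and 47 RNA counts. Its scaled ratios of 1.63, 1.02 and 2.09 were above the 0.386, 0.471 and 0.343 of the member in all 3 libraries, although the pair shares 98 bp. The median of the 4 neighbours was 0.482. Over the 192 counted overlapping neighbours of the other elements it was 0.814, and 26.6% of those were under 0.5. With 4 neighbours on 2 to 9 barcodes each, no difference from that group can be read.

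Elements next to a member without sharing sequence were in part well above the median. Those with counts numbered 5, with a median scaled ratio (mean of 3 libraries) of 1.59. It was 0.819 for 239 such neighbours of the other elements with at least 10 barcodes, and the difference was not tested. Of 5 such elements, the one at chr4:39460432-39460629 was highest, with 98, 94 and 83 RNA counts on 324 DNA counts and scaled ratios of 2.85, 2.81 and 2.37. The member that starts 483 bp before it, at chr4:39459949-39460146, was at 0.218, 0.196 and 0.214. Since the member was chosen as low and this neighbour named as the highest, the gap between them is not read as a result. The element at chr5:140027333-140027530 was at 1.77, 1.73 and 3.27 next to a member at 0.441, 0.194 and 0.237. At chr14:50052998-50053195 the values were 1.25, 1.76 and 1.75. In edgeR's fit these 3 had log2 ratios of 1.29 ± 0.64, 1.04 ± 0.87 and 0.53 ± 1.28 (SE). The adjusted p in edgeR's test was 0.335, 0.776 and 0.970. How many of all elements edgeR called above the centre was not counted, so nothing is read from these p-values.

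The other two nearby elements were low as well. The element at chr6:26158544-26158741 starts 200 bp after the start of a member and had 219 DNA counts on 6 barcodes, with scaled ratios of 0.259, 0.751 and 0.338. The element at chr8:118147392-118147589 had 76 DNA counts on 2 barcodes and 1, 1 and 3 RNA counts. Near members, output therefore ran from 0.206 to 2.68 in the mean scaled ratio of the counted neighbours. The depth of the neighbours, at 36 to 324 DNA counts, was below that of most members.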

How the data were processed

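Raw counts per barcode (1 plasmid DNA library, 3 RNA libraries) and a table pairing barcodes with elements were deposited by the authors. The counts are whole numbers and unnormalized, as judged from the values. The count table is named as filtered, with the filter not given in the sources used here. As tested on the values, no barcode is under 10 DNA counts or lacks RNA counts. Read trimming, barcode matching and molecular identifiers are likewise not given. Coordinates are on hg19, per the submitters' processing notes, and starts are printed counted from 1. Libraries were matched to columns by title, with 0 columns left over.

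Ratios were computed in Python 3.11.15 (pandas 2.3.3, scipy 1.17.1). Element sums were tested as RNA against DNA with edgeR 4.0.16 (TMM, quasi-likelihood, R 4.3.3), with limma 3.58.1 (voom) and DESeq2 1.42.0 as alternatives, and adjusted over all elements. The edgeR SE is the log2 ratio over the root of F. The edgeR and limma fits were checked on simulated counts. Their scatter between libraries was set and not estimated from these data. The check therefore does not show how many low elements the tests can call here. Replicates are called biological in the labels. The spread behind each p-value is estimated between electroporations of 1 plasmid pool and partly pooled over elements. Elements were named by a rule: the 10 members with the lowest mean ratio, the 10 with the most barcodes, the 3 nearest the threshold on either side, and counted neighbours sharing at least 50 bp. The members outside it were added to account for all 18, and neighbours sharing no sequence and the stretch on chromosome 6 after values were seen. The members and this rule were chosen with earlier results of these data known. Alternatives changed the scaling, thresholds, barcode weights, test and replicates. The sequences of the elements were not used here.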

Additional observations from a re-analysis of the deposited data

How the results depend on the processing

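The number of elements meeting the rule moved with nearly every choice, from 18 to 214 with library totals, 29 with the centre taken over elements with at least 10 barcodes, 84 with at least 5 barcodes and 4 with at least 20. It was 5 at a ratio under 0.4, 46 under 0.6 and 40 with RNA counts of 1 to 4 set to 0. Without RNA replicate 1, 2 or 3 it was 63, 47 and 49. With 5 barcodes, 0.6 or a left-out replicate the rule is looser and keeps all 18 by construction, as do the totals and the other centre, which lower every ratio. With low counts at 0, 17 of the 18 were kept. TMM factors gave 26, the mean of barcode ratios 19 (12 of the 18) and leaving out the top barcode 19 (9 of the 18). The median log2 ratio of -1.84 became -2.58 with library totals, which moved the median of all elements by -0.73, and stayed within 1 SD between libraries otherwise. Of the 18, the number called below the centre (adjusted p under 0.05) was 0 in edgeR, 9 in limma-voom, 4 with library totals (50 of all 3378 elements) and 1 over elements with at least 10 barcodes (chr14:50053454-50053651, the 1 call among 1143). It was 0 in DESeq2, where 0 of all 1806 elements with an adjusted p were called. DESeq2 gave no adjusted p to 10 of the 18 and to 1572 of all 3378 elements. At an unadjusted p under 0.05 it placed 2 of the 18 below the centre, with no count over all elements beside them. In edgeR the number was 0 to 1 without a replicate, and the 1, without replicate 1, was chr5:140027104-140027301, among 3 calls over all elements. At a threshold of 0.4, 19.5% of cases low in a pair of libraries were low in the remaining one, against 34.0% at 0.5. An element again counted once per pair. Beside these stood 10.1% and 14.7% of all elements with at least 10 barcodes, as means of the 3 libraries. No paired analysis was possible because there is 1 DNA library for all 3 RNA libraries. Members had 1 to 61 RNA counts per library, and differences between them were not tested.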

Other observations

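Elements with fewer than 10 counted barcodes fell below the same threshold more often. Of 2235 such elements, 236 (10.6%) had a scaled ratio under 0.5 in all 3 RNA libraries, with a median of 3 barcodes. In 79 of the 236 at least 1 library had no RNA count at all. None of the 1143 elements with at least 10 barcodes had a library without RNA counts.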
